A study of Drosophila melanogaster with 12 samples.

Results

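Act88F and alphaTub85E are cytoskeletal genes that were picked as the low members of the actin and tubulin families at day 10 of this series, and they are followed here array by array through the 3 treatment groups. They were chosen by their mean log2 ratio at day 10, with no threshold, and their probes were found by current gene symbol. They account for 2 of the 6793 genes that had a probe with 1 gene. Each has 1 probe of 2 adjacent spots, out of 7558 probes with 1 gene. Act88F (CG5178) had a value on all 12 arrays. alphaTub85E (CG9476) had a value on 3 arrays, all of day 10. Both genes are on chromosome arm 3R in the RefSeq gene table.

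Actin polymerises into the thin filaments that myosin pulls on in muscle, and into the filaments that shape and move every cell. Tubulin forms microtubules from pairs of an alpha and a beta subunit. The fly has several actin and several alpha-tubulin genes that encode closely similar proteins in different cells. Act88F encodes the actin of the indirect flight muscles of the thorax, and alphaTub85E encodes an alpha-tubulin found in muscle and in support cells such as those of stretch-sensing organs. A head holds little of the flight muscle that makes most Act88F protein.

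Heads came from unmated Oregon-R wild type males aged 3 to 4 days at the start. In all 3 groups the treated flies first ate the convulsant pentylenetetrazole (PTZ) at 8 mg/ml in their food for 7 days. The day-10 group then had the antiepileptic ethosuximide (ETH) in its food, at 3.48 mg/ml, for 3 days. The day-14 ETH group had the same 3 days of ETH and a further 4 days of normal food, and the other day-14 group had normal food for all 7 days after PTZ. Controls of the same age, called untreated here, stayed on normal food and were moved to fresh vials on the same days. Each group has 4 spotted cDNA arrays with 2 colours, and on each array the heads of a pool of treated flies were set against those of a pool of untreated flies. The submitters describe the 4 arrays of a group as biological replicates, and it is not stated whether the groups shared untreated pools. In bulk heads, fewer cells of a type and less RNA per cell cannot be told apart.

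A value is the log2 ratio of the 2 channels with the median of its array at 0. The treated RNA carried the dye Cy5 on replicates 1 and 2 of each group and Cy3 on replicates 3 and 4, the dye swaps. Deposited ratios were taken to be Cy5 over Cy3, and the swaps were turned in sign to give treated over untreated. No source used here states that reading for the swaps, and values are therefore also given with the swaps not turned. An array held values for between 9106 and 10433 probes in the day-10 group. The range was 5077 to 7399 in the later ETH group and 6869 to 7433 in the group never given ETH. The standard deviation over probes was larger on the day-10 arrays (0.46 to 0.58) than on the day-14 arrays (0.27 to 0.39). Across probes, which share arrays and slide positions, each day-10 array correlated before turning at 0.38 to 0.48 with those of the opposite orientation, and turning makes these correlations negative. After subtraction of print-block medians they were 0.17 to 0.37. At day 14 the same correlations before turning were -0.04 to 0.33 with ETH and -0.23 to 0.28 in the other arm. Of 12 listed photoreceptor markers, which define the head, 8 had a probe, and 8, 7 and 6 of these had values on at least 3 arrays of the groups in the order above. Of 8 listed testis markers 4 had a probe and none had values on 3 arrays of any group.

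Act88F was lower on the dye swaps, once turned, than on the arrays with the treated RNA in Cy5, in all 3 groups. At day 10 the turned values of replicates 1 to 4 were 0.02, 0.04, -0.77 and -0.56 log2. At day 14 after ETH they were 0.13, 0.10, -0.35 and -0.38. At day 14 without ETH they were -0.22, 0.20, -0.43 and -0.29. The 6 dye swaps were lower than the 6 other arrays without overlap. Of the 2145 probes with a value on all 12 arrays, 171 (7.97%) had orientations that did not overlap, in either direction. These arrays include those of day 10, which were used to pick the gene. The widest spread between arrays of the same group and orientation was between replicates 1 and 2 of the day-14 group without ETH.

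The day-10 mean of Act88F was -0.32 ± 0.41 (SD, n = 4 arrays) with the swaps turned, and 0.35 ± 0.38 with the swaps not turned. Since the gene was picked for this mean, it is a description and was not tested. Its sign came from the dye swaps, since replicates 1 and 2 lay at 0.02 and 0.04. Without centring these were at -0.10 and -0.02, and the turned mean was -0.17.

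Markers of other head cells are given beside that value, and their part in it was not tested. With the swaps turned, the day-10 median was 0.09 over 3 neuron markers and 0.07 over 4 hemocyte markers, with 0 and 1 below 0. It was -0.05 over 7 fat body markers and -0.01 over 5 cuticle and epidermis markers, with 5 and 3 below 0. With dye swaps not turned these medians were 0.08, 0.20, 0.10 and -0.11. At day 10 the 6 measured of 9 listed glial markers were all below 0, with a median of -0.30 and array medians from -0.60 to 0.05. Their median was -0.21 with dye swaps not turned, where the Act88F mean was above 0. At day 14 the glial median was -0.04 over 4 markers after ETH and -0.01 over 3 without ETH, fewer markers than at day 10. With dye swaps not turned the day-14 glial medians were 0.05 and -0.15. The median of the measured photoreceptor markers was -0.09 at day 10, -0.15 at day 14 after ETH and -0.09 without ETH with the swaps turned, and 0.23, 0.14 and 0.30 with the swaps not turned.

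**Figure D1:**
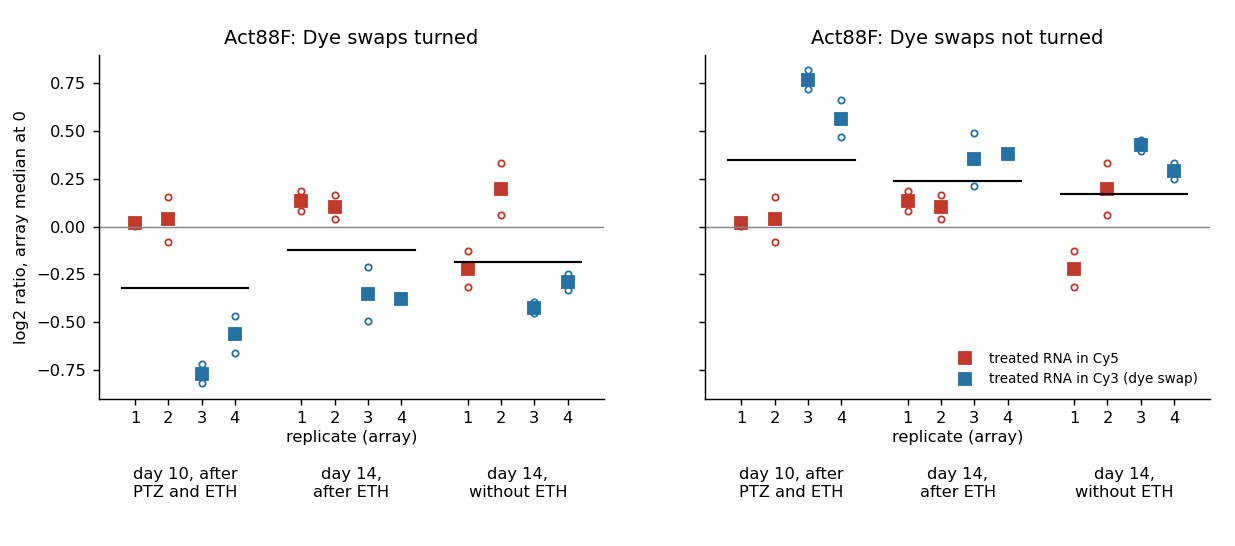
Act88F log2 ratio (vertical axis, array median at 0) on each of the 12 arrays, by group and replicate, with the dye swaps turned in sign in the left panel and not turned in the right panel. Squares are the mean of the 2 spots, open circles the spots, red the arrays with the treated RNA in Cy5, blue the dye swaps, and the black line the mean of 4 arrays; the line lies between -0.32 and -0.12 on the left and between 0.17 and 0.35 on the right.

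The day-14 arrays had no part in picking the gene, and on them Act88F did not pass the test in either arm. At day 14 after ETH the mean was -0.12 (SE 0.10, n = 4, 95% interval -0.34 to 0.09, limma adjusted p = 0.998), with 2 of 4 arrays below 0. At day 14 without ETH it was -0.19 (SE 0.10, n = 4, 95% interval -0.40 to 0.03, limma adjusted p = 0.793), with 3 of 4 arrays below 0. In the test across all probes limma called 0 of 5135 (0%) after ETH and 0 of 6386 (0%) without ETH, while 226 and 427 had an unadjusted p under 0.05. With the day-14 arrays fitted alone, the adjusted p of Act88F was 0.603 after ETH and 0.339 without ETH, and the calls over all probes without ETH went from 0 to 8 higher and 33 lower (0.642%). With dye swaps not turned the means were above 0, at 0.24 after ETH (SE 0.10, limma adjusted p = 0.254) and 0.17 without ETH (SE 0.10, limma adjusted p = 0.607, with 13 of 6386 probes or 0.204% called). The direction of the Act88F ratio at day 14 thus changes with the reading of the swaps, and in neither reading did it pass.

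The arms with and without ETH did not differ detectably in Act88F at day 14. The ETH arm minus the other was 0.06 log2 (SE 0.14, n = 4 against 4, 95% interval -0.24 to 0.37, limma adjusted p = 1.00), and 0.07 (SE 0.14, limma adjusted p = 0.999) with dye swaps not turned. The interval holds differences of up to 0.37 log2 in favour of the ETH arm. Without replicate 1 of the group without ETH, the array at -0.22, the difference was -0.05 (limma adjusted p = 0.999). The mean without ETH itself became -0.08 without that array. Limma called 0 of 4766 probes (0%) for this difference, and 78 had an unadjusted p under 0.05. Within the ETH arm the mean went from -0.32 at day 10 to -0.12 at day 14, a difference of 0.20 that is given as a description because it contains the day-10 values. It was -0.11 with dye swaps not turned.

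**Figure D2:**
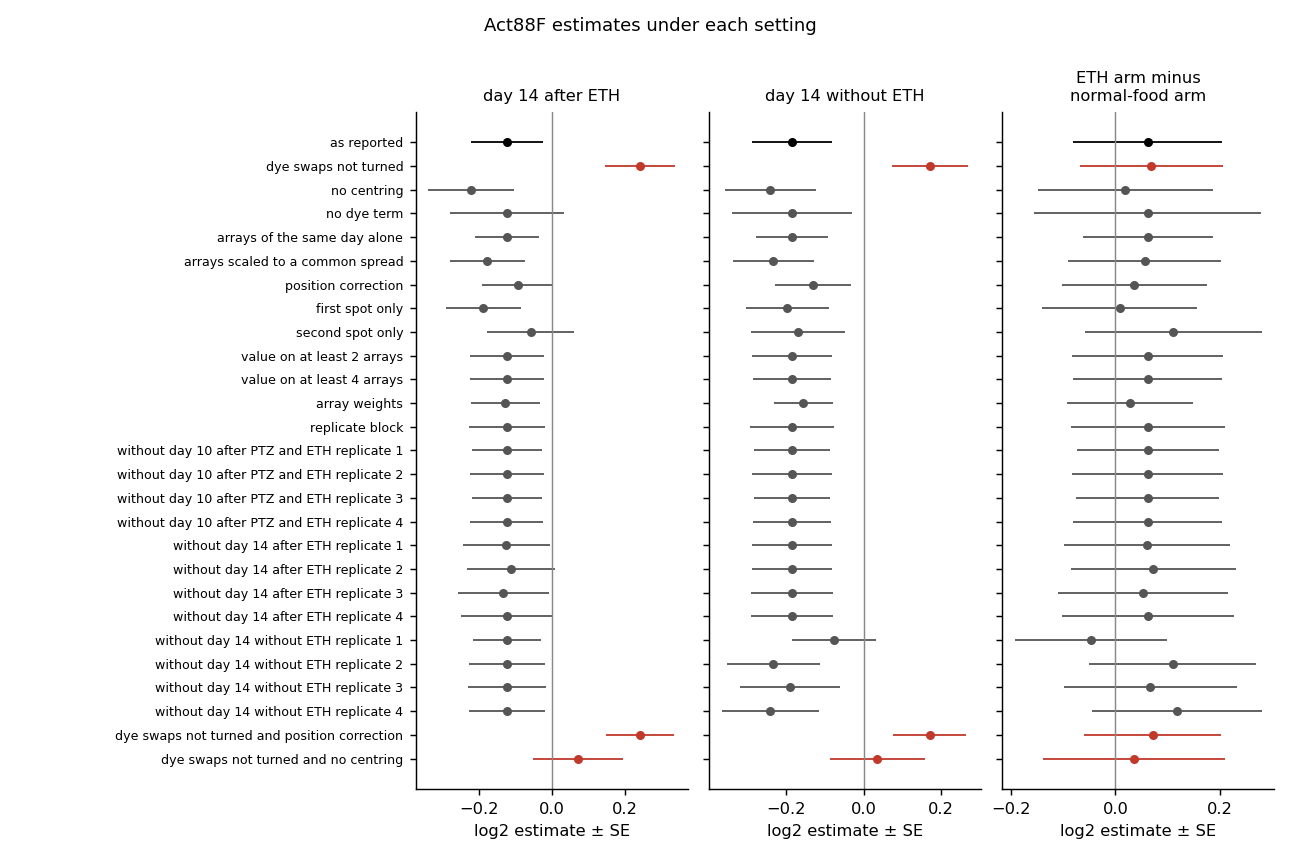
Act88F estimate (horizontal axis, log2, with bars of 1 SE) for day 14 after ETH, day 14 without ETH and the difference of the arms, under the reported setting (black), the settings that turn the dye swaps (grey) and those that do not (red). In the first 2 panels the grey points lie below 0 and the red points above 0; in the third, the single point below 0 is the fit without replicate 1 of the group without ETH.

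The difference between dye orientations was larger than any group mean of Act88F. In the fit with a dye term, the turned ratio was 0.51 higher (SE 0.12, 12 arrays) with the treated RNA in Cy5 than in Cy3. On the 8 day-14 arrays alone it was 0.41 (SE 0.13), and 14.9% of the 2973 probes with a value on all 8 had a larger one in either direction. The 2 spots of the probe were 0.005 to 0.28 apart, with a median of 0.114 against 0.165 over all probes on the same arrays. The widest of these gaps was larger than either day-14 mean in size. The median of the print block that holds Act88F lay between -0.15 and 0.10 on the 12 arrays. After that median was subtracted, day-10 replicates 1 and 2 stood at -0.06 and 0.19, and replicate 1 of day 14 without ETH at -0.12. The means were then -0.29 at day 10, -0.09 at day 14 after ETH and -0.13 at day 14 without ETH.

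Without centring, Act88F was below 0 on all 12 arrays once the dye swaps were turned, from -0.39 to -0.02 log2. This was seen after the values were known. Of the 2145 probes with a value on every array, 2 (0.0932%) were below 0 throughout, Act88F and an unnamed probe, and 0 (0%) were above 0 throughout. The rule used the day-10 arrays among the 12. On the 8 day-14 arrays alone, 146 of 2973 probes (4.91%) were below 0 throughout, Act88F among them, and 0 (0%) above. The deposited array medians lay between -0.35 and -0.06 where the treated RNA was in Cy5 and between -0.62 and 0.03 on the swaps. Before turning and after centring, the 6 swaps of Act88F lay above the 6 other arrays, as in 31 of 2145 probes (1.45%). In either direction, 50 of the 2145 (2.33%) had orientations that did not overlap in that reading. On the 8 day-14 arrays alone, the swaps lay above the other arrays in 258 of 2973 probes (8.68%), Act88F among them.

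alphaTub85E had values on replicates 1, 3 and 4 of day 10, and on no day-14 array. Its turned values were -1.05, -0.88 and -0.36 log2, a mean of -0.76 ± 0.36 (SD, n = 3 arrays). All 3 were below 0, and replicate 4 was the closest to it. With dye swaps not turned they were -1.05, 0.88 and 0.36, with a mean of 0.06 ± 1.00, so that the single array with treated RNA in Cy5 stood opposite both swaps. The gene was picked for the turned mean, which was not tested. The fit with a dye term placed it at -0.84 with 1 residual degree of freedom.

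The 2 spots of alphaTub85E were 0.02 to 0.30 apart on these arrays, with a median of 0.27 against 0.21 over all probes on them. Its print block lay above the array median on all 4 day-10 arrays, by 0.21 to 0.30 in the ratio before turning. Relative to its block the turned values were -1.32, -0.68 and -0.08. On replicate 4 the probe thus stood almost at the level of its block. Of the 9479 probes with values on at least 3 day-10 arrays, 898 (9.47%) had none on the 8 day-14 arrays, and in the print block of alphaTub85E 27 of 236 did (11.4%). What kept the gene below the authors' filters at day 14 was not tested.

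**Figure D3:**
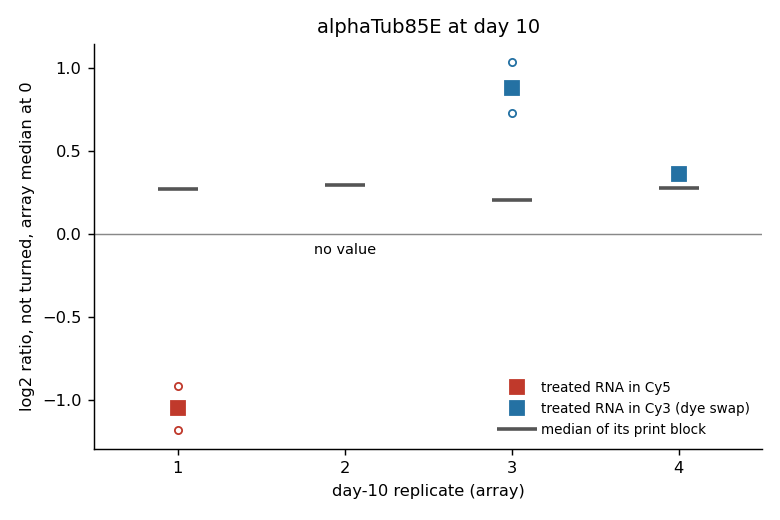
alphaTub85E log2 ratio at day 10 before turning (vertical axis, array median at 0) by replicate, with squares for the mean of the 2 spots and open circles for the spots. Red is the array with the treated RNA in Cy5, blue the dye swaps and the grey bar the median of the print block; the red square lies at -1.05, the blue squares at 0.88 and 0.36, and the bars between 0.21 and 0.30.

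The family was measured only in part. Of 6 listed actin genes 3 had a probe, and of 10 listed tubulin genes 4 had one; the others were not analysed here. Act79B and Act87E, actin genes of other adult and larval muscles, had values on all 12 arrays. Spotted cDNAs of such similar genes can bind each other's RNA, so the probes of the actin genes cannot be taken as independent.

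Act79B had turned means of -0.11 ± 0.47 at day 10, -0.03 ± 0.55 at day 14 after ETH and -0.15 ± 0.23 at day 14 without ETH (SD, n = 4 arrays each). Of the 2 probes of Act87E, one, called A, stood at -0.29 ± 0.26, 0.09 ± 0.62 and -0.13 ± 0.29 in the same order, and the other, B, at -0.17 ± 0.10, -0.03 ± 0.23 and 0.01 ± 0.16. At day 14 every one of these means was smaller than its SD. With the swaps turned, none of the 3 actin genes passed in any of the day-14 comparisons, where the list used probe B for Act87E. In the reported setting no probe at all was called in them, probe A included.

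With dye swaps not turned, the 4 actin probes were above 0 on each of the 4 arrays of day 14 after ETH, as were 325 of all 3301 probes with values on those arrays (9.85%). Probe A of Act87E ranged from 0.45 to 0.63 there, with a mean of 0.54 ± 0.10 (SD), the highest of the 4. Act79B ranged from 0.21 to 0.63 (mean 0.45, limma adjusted p = 0.109). Probe B of Act87E ranged from 0.07 to 0.27 (mean 0.19, limma adjusted p = 0.362) and Act88F from 0.10 to 0.38. At day 14 without ETH, Act88F and Act79B each had 1 array below 0 and the probes of Act87E had none. In that reading 17 of 5135 probes (0.331%) were called after ETH, 13 higher and 4 lower. Act88F, Act79B and probe B of Act87E were not among them. Probe A was not used for the lists, and its test result is not given here.

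**Figure D4:**
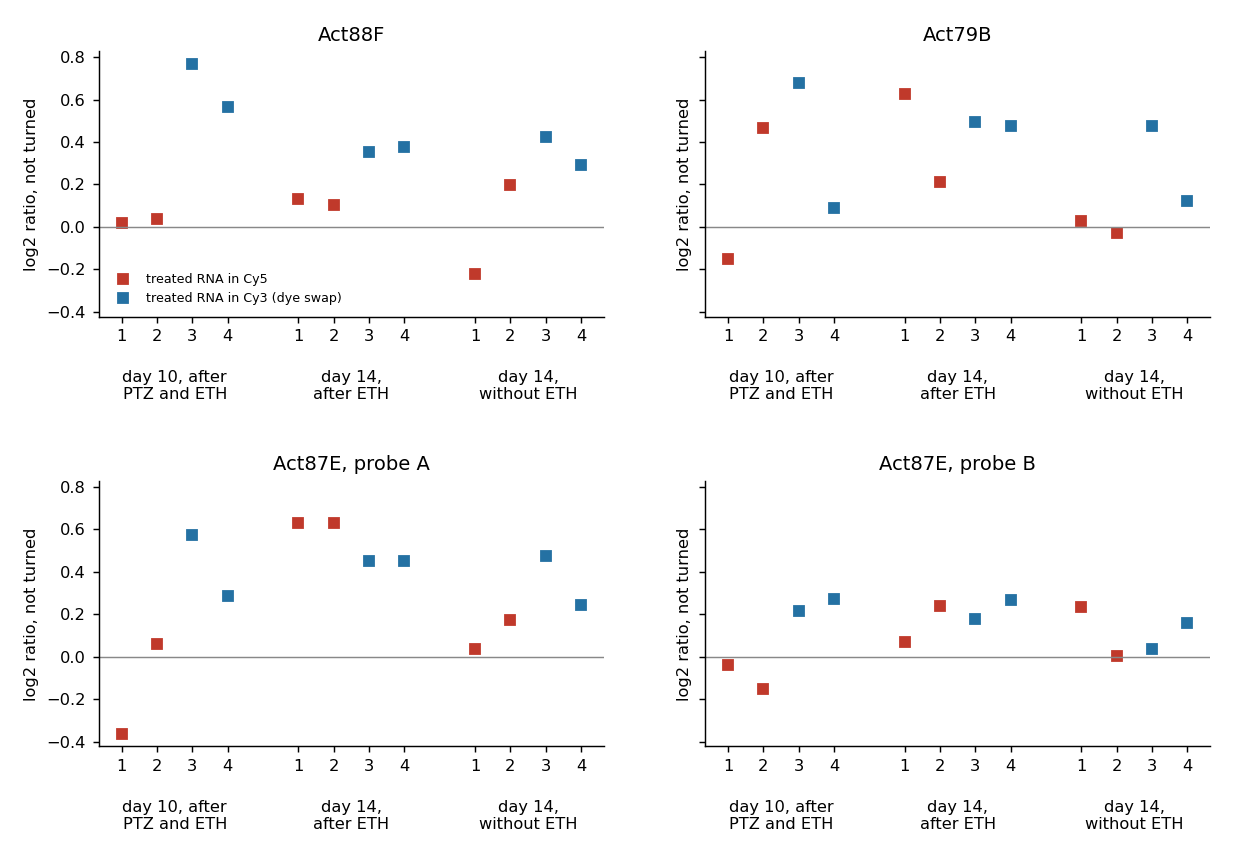
Log2 ratio before turning (vertical axis, array median at 0) of the 4 actin probes on the 12 arrays, by group and replicate; red squares are arrays with the treated RNA in Cy5 and blue squares dye swaps. At day 14 after ETH all squares lie above 0, from 0.07 to 0.63, and in every group the blue squares of Act88F lie above its red ones.

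Among tubulins, alphaTub85E was the only alpha-tubulin gene with a value. The beta-tubulin gene betaTub56D, which is widely expressed, had 3 day-10 arrays with a turned mean of -0.33 ± 0.66, and 1 array at day 14. The beta-tubulin gene betaTub60D was measured at -0.13 ± 0.26 after ETH and 0.07 ± 0.13 without ETH at day 14 (SD, n = 4 arrays each), with a difference of the arms of -0.20 (SE 0.15, limma adjusted p = 1.00). The testis beta-tubulin gene betaTub85D had at most 2 arrays in a group. At day 14 only 1 tubulin gene, betaTub60D, was tested, and it did not pass.

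Genes of the sarcomere, the contractile unit of muscle, were set beside Act88F, which is a muscle actin gene. Of 31 listed sarcomere genes 9 had a probe. At day 10, 8 were tested with a median of -0.04 (5 below 0), against 0.02 over all probes. At day 14 after ETH 6 were tested with a median of 0.08 (2 below 0), and without ETH 7 with a median of 0.04 (2 below 0), against 0.00 and -0.01 over all probes. None of them passed in any of these comparisons. Over arrays, the median of the measured sarcomere genes ranged from -0.16 to 0.22 at day 10, from -0.02 to 0.23 at day 14 after ETH and from 0.03 to 0.09 at day 14 without ETH. Their part in the Act88F values was not tested.

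TpnC4, the troponin C gene of flight muscle, stood at -0.12 ± 0.18 at day 10 (n = 4) and at 0.10 ± 0.08 at day 14 without ETH (n = 4). It had 2 arrays at day 14 after ETH, at -0.13 and 0.31. The tropomyosin gene Tm2 stood at 0.16 ± 0.05 after ETH (n = 4, limma adjusted p = 0.998) and 0.04 ± 0.05 without ETH (n = 4), and the myosin light chain gene Mlc1 at 0.15 ± 0.11 and 0.02 ± 0.24 (n = 4 each). Another troponin C gene, TpnC73F, stood at -0.13 ± 0.20 after ETH (n = 3) and 0.23 ± 0.23 without ETH (n = 4); the difference of the arms was -0.36 (SE 0.19, limma adjusted p = 1.00). The myosin light chain gene Mlc2 stood at 0.15 ± 0.47 after ETH (n = 3) and -0.06 ± 0.17 without ETH (n = 4). Without ETH, TpnC41C stood at 0.17 ± 0.39 (n = 4). The Z-disc gene Zasp66 stood at -0.14 ± 0.20 (n = 4) there in the probe used for the list, and at 0.34 ± 0.23 (n = 3) in its other probe. With dye swaps not turned, the median of the sarcomere gene means was -0.16 at day 10, 0.01 at day 14 after ETH and 0.02 without ETH, while the Act88F means were 0.35, 0.24 and 0.17.

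**Figure D5:**
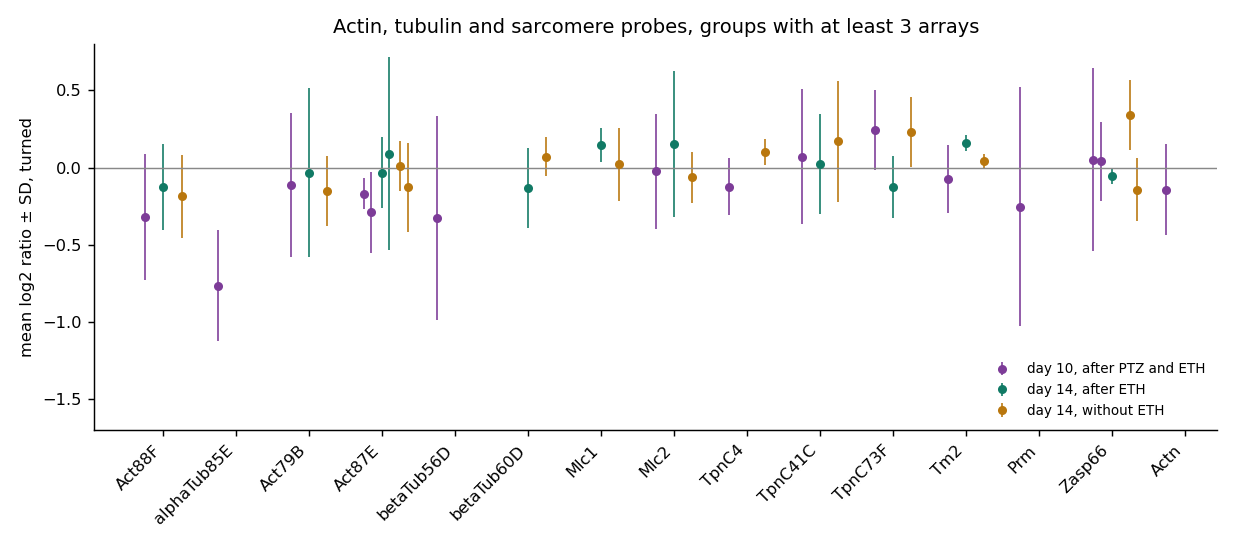
Mean log2 ratio with the dye swaps turned (vertical axis, bars of 1 SD over arrays) for each actin, tubulin and sarcomere probe, in groups where at least 3 arrays had a value; purple is day 10, green day 14 after ETH and orange day 14 without ETH. Genes with 2 probes have 2 points in a group where both probes had at least 3 arrays, and the lowest point is alphaTub85E at -0.76.

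Genes that handle actin and tubulin gave no calls at day 14. Of 27 listed actin-binding and turnover genes, 7 were tested after ETH (median -0.04) and 10 without ETH (median -0.01). Those with the smallest p were twf, which binds actin monomers, at -0.31 (SE 0.12, limma adjusted p = 0.998) after ETH, and qua, a villin-like actin-binding gene, at 0.31 (SE 0.12, limma adjusted p = 0.715) without ETH. The actin-bundling gene Fim stood at -0.23 (SE 0.12) and -0.13 (SE 0.12), and sn, the fascin gene, at 0.27 (SE 0.13) after ETH. Next by p were cib at -0.04 (SE 0.11) after ETH and flr at -0.13 (SE 0.17) without ETH. Of 32 listed tubulin folding and microtubule genes 5 and 6 were tested, with medians of 0.01 and -0.01, and DCTN2-p50, a dynactin subunit gene, had the smallest p at 0.20 without ETH (SE 0.10, limma adjusted p = 0.782). The dynein intermediate chain gene sw stood at -0.17 (SE 0.12) without ETH, and CLIP-190, which binds microtubules, at 0.13 (SE 0.11) after ETH. The CCT chaperonin folds both actin and tubulin. Of its 8 genes 3 were tested in each day-14 arm, among them CCT1 at 0.06 (SE 0.19) and 0.12 (SE 0.19) and CCT2 at -0.12 (SE 0.14) and -0.11 (SE 0.15). The third was CCT4 after ETH, at 0.07 (SE 0.15), and CCT3 without ETH, at 0.01 (SE 0.12). Of 15 listed actin-related and Arp2/3 genes 5 were tested at day 10, with a median of 0.00, and none at day 14. Of 18 listed genes of chordotonal (stretch-sensing) organs and of cilia in general, 2 were tested in each arm. Tektin-C stood at 0.28 (SE 0.38) and 0.18 (SE 0.32), and Oseg5 at 0.07 (SE 0.22) and -0.07 (SE 0.25). With the swaps turned, no gene of these lists passed at day 10 either, where limma called 21 of 9479 probes (0.222%).

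With the swaps turned, the probes whose pattern over the arrays was most like that of Act88F were GstE12 (Pearson r 0.96 over 12 arrays), Cpr11B (0.93 over 10), Ssrp (0.92 over 10), RnpS1 (0.92 over 10) and Nckx30C (0.91 over 10), among 2841 probes with 1 gene and at least 10 arrays in common. The median r over these probes was -0.08. The arrays share the dye orientation, which alone splits the Act88F values. With dye swaps not turned r was 0.91 for GstE12 and 0.18 for Ssrp, with the others between 0.56 and 0.68, and after subtraction of print-block medians the 5 lay between 0.71 and 0.85. Their ranks were then 95, 51, 20, 129 and 119, and with dye swaps not turned 2, 111, 963, 268 and 272. The 5 highest in that reading were Faf2, GstE12, CG8547, Nap1 and Papss, so that GstE12 alone was among the first 5 in both readings of the swaps.

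The likeness of the other actin and tubulin genes to Act88F also moved with the setting. Turned, r was 0.78 for probe A of Act87E, 0.60 for its probe B, 0.76 for Act79B and 0.67 for betaTub60D. With dye swaps not turned these were 0.52, 0.36, 0.48 and 0.38, and after subtraction of print-block medians 0.68, -0.31, 0.61 and 0.25. The sarcomere genes with enough arrays ranged from -0.58 (TpnC41C) to 0.02 (Mlc2) turned, from -0.75 (TpnC73F) to 0.33 (Mlc1) not turned, and from -0.72 (TpnC4) to 0.69 (Mlc2) after subtraction of print-block medians. alphaTub85E shared too few arrays with any probe for such a comparison.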

How the data were processed

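RNA of treated and untreated fly heads was measured on 12 spotted cDNA arrays. The authors' image analysis used GenePix Pro 6.0 and their ratio normalization Acuity 4.0, per the labels' design text. Spots under 100 intensity units and close to background were ignored in it, and later filters took out saturated, poor or uneven spots; the rest of the filter list is not given in the sources used here. The deposited values are log2 ratios, a scale read from the values: as linear ratios, 100% of the 126 lowest lay on a grid of 0.001, within 0.05 of a step. Intensities are not used here, so depth is unknown and the number of arrays limits the precision.

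From there, 5 spot values at the software ceiling were set to missing, the 2 spots of a probe were averaged, each array was centred on its median, and dye swaps were turned. Of 13824 probes 7558 had 1 gene, 51 several and 6215 none listed; 7447 found a current symbol through their gene ID. No 2 arrays were duplicates (at most 0.124% identical values in 66 pairs). A model with a mean per group and a dye term was run in limma 3.58.1 (R 4.3.3) on all 12 arrays together, over probes with values on at least 3 arrays of a group. Tests were 2-sided, with Benjamini-Hochberg adjustment over all probes of a comparison and a threshold of 0.05. The labels call the 4 arrays of a group biological replicates. The p-values measure the spread between arrays, in which differences of pools and of measurement cannot be told apart. That spread was shared over the 3 groups. The script was tested on simulated data.

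The members and lists were chosen with earlier results of these data known. The text names both members, every measured actin and tubulin gene, up to 4 genes a list by smallest p, and the 5 probes most like Act88F. Lists used 1 probe a gene, the one with most values.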

Additional observations from a re-analysis of the deposited data

Results flagged for a closer look

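Of 32 sets of 4 arrays checked over the actin, tubulin and sarcomere probes, 1 held a value far from the other 3, where chance gives about 1 in 20. TpnC73F, a troponin C gene, stood at 0.57 log2 on replicate 1 of day 14 without ETH, against 0.07 to 0.15 on the other 3 arrays. Neither Act88F nor alphaTub85E had such a value.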

How the results depend on the processing

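The sign of the Act88F mean followed the reading of the dye swaps. With dye swaps not turned, with the same after print-block correction, and with the same without centring, the day-10 mean of Act88F was 0.35, 0.36 and 0.10. Its day-14 mean was 0.24, 0.24 and 0.0711 with ETH, and 0.17, 0.17 and 0.0354 in the arm without it. The difference of day 14 from day 10 became -0.11, -0.12 and -0.0334 in those readings, and -0.0559 with the swaps turned but no centring. alphaTub85E at day 10 became 0.0647, -0.19 and -0.24. In the other alternatives both genes kept the sign of each of these values, but not always the size. With the swaps turned and no centring, Act88F was -0.17 at day 10 and -0.22 at day 14 after ETH, with a difference of the arms of 0.0192. With arrays scaled to a common spread, the day-10 means of Act88F and alphaTub85E were -0.19 and -0.43, and day 14 minus day 10 was 0.0135. With the first or the second spot alone, Act88F was -0.19 or -0.0587 at day 14 after ETH, 0.00825 or 0.11 for the difference of the arms and 0.0658 or 0.33 for day 14 minus day 10. The readings combining dye swaps not turned with another change were chosen after seeing the data.

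Leaving out 1 array moved Act88F between -0.44 and -0.17 at day 10, between -0.13 and -0.11 at day 14 after ETH, between -0.24 and -0.08 without ETH, between -0.0471 (without replicate 1 of the group without ETH) and 0.12 for the difference of the arms, and between 0.05 and 0.32 for day 14 minus day 10. It moved alphaTub85E between -0.97 and -0.62. Over all alternatives the limma adjusted p of Act88F was at least 0.236 at day 14 after ETH, 0.248 without ETH and 0.966 for the difference of the arms.

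Labels do not tie replicate numbers to shared material. Removing group and orientation means of 2 arrays made same-numbered correlations equal in pairs. The 12 lay from -0.07 to 0.23. With the replicate number as a block, Act88F was -0.12 (limma adjusted p = 0.997), -0.19 (0.844) and 0.06 (0.999) in the 3 day-14 comparisons.

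Counts of calls over all probes depended on the setting. At day 10 the 12 higher and 9 lower became 7 and 5 with the block, 6 and 5 with array weights, 5 and 3 without a dye term, 5 and 8 or 7 and 5 with a single spot, 1 and 0 with that day alone and 0 and 0 with scaled arrays. They became 1771 and 1117 with dye swaps not turned, and 2 and 0 without replicate 2 of day 10. At day 14 without ETH the count of 0 became 28 higher and 94 lower with array weights, 15 and 52 with scaled arrays, 13 and 0 if dye swaps were not turned, and 8 and 33 when day-14 arrays were fitted alone. At day 14 after ETH it became 13 and 4 with dye swaps not turned. The difference of the arms gave 0 in every setting run. On the 8 gene lists, counts above 0 arose only in the 3 settings with swaps not turned. They were 17 list-setting pairs at day 10 and 9 for day 14 minus day 10. There up to 30.5% and 9.66% of all probes were called. No cause was tested.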
